A study of Drosophila melanogaster
Gallus gallus with 8 samples.

Results

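To ask how DNA:RNA hybrids were distributed towards the ends of chicken chromosomes, the DRIP-seq peaks lying within 1 Mb of an end of chromosomes 1 to 15 and Z were set against the peaks further inside the same chromosomes. Members were chosen by position alone. A peak was taken if it started at or before base 1000000, or if it ended within 1000000 bp of the last peak end found on that chromosome in either list. This gave 580 peaks out of 41445 in wild type and 621 out of 48468 in *primpol*, or 1201 of 89913 in both lists together. They came from 32 ends spanning 32 Mb. On the 16 chromosomes 1.51% of wild type and 1.36% of *primpol* peaks lay at the ends, which made up 3.47% of the length. The inner reference held 37845 wild type and 45043 *primpol* peaks.

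In the study, DNA:RNA hybrids were immunoprecipitated from DT40 cells, a chicken B-cell line, with the hybrid-specific antibody S9.6 and sequenced. Wild type cells and PrimPol deficient cells, called *primpol* here, each gave 2 DRIP samples, 1 input DNA sample and 1 sample treated with RNase H as a negative control. All 8 samples contained *Drosophila* S2 cells as a spike-in. The measurements are 1 list of broad peaks per genotype, and both DRIP samples of a genotype stand behind the same list, so no spread between replicates can be given and no p-value is reported for a difference between genotypes. The 95% intervals below cover counting error only, and peaks are not replicates of a condition. The lists name no genes, so the absence of PrimPol could not be checked from them. The labels do not say how many *primpol* clones were used.

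An R-loop forms when a transcript stays paired with its template strand and leaves the other DNA strand unpaired. PrimPol is a primase-polymerase that lets DNA synthesis restart beyond an obstacle, and the study examined its part in limiting R-loops during replication. Chromosome ends are of interest because vertebrate telomeres are themselves transcribed, and the RNA known as TERRA can pair with telomeric DNA. In the chicken the sequence near chromosome ends also tends to be rich in GC. The end of an assembled chromosome is not the telomere, however. The left end was counted from base 1 of the assembly Galgal5, while the right end was placed at the last peak, which therefore lies at distance 0 by construction. Assembly gaps, base composition and genes near these ends were not analysed here.

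The peaks at the ends were sparse. The wild type list had 18.1 peaks per Mb at the ends, where the inner part of the same chromosomes, weighted equally by end, had 34.8. The observed number was 0.520 of that expected from each chromosome's own inner density (interval 0.479 to 0.564). In *primpol* there were 19.4 peaks per Mb against 40.3, a ratio of 0.481 (0.444 to 0.521). Both ratios lay well below 1, and the ends held fewer peaks than expected on 15 of 16 chromosomes in wild type and on 14 of 16 in *primpol*. The ratios rose to 0.698 and 0.713 when only the stretch from 1 to 3 Mb inside each end served as the reference. The sequence next to the ends was thus sparse as well, though less so.

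**Figure D1:**
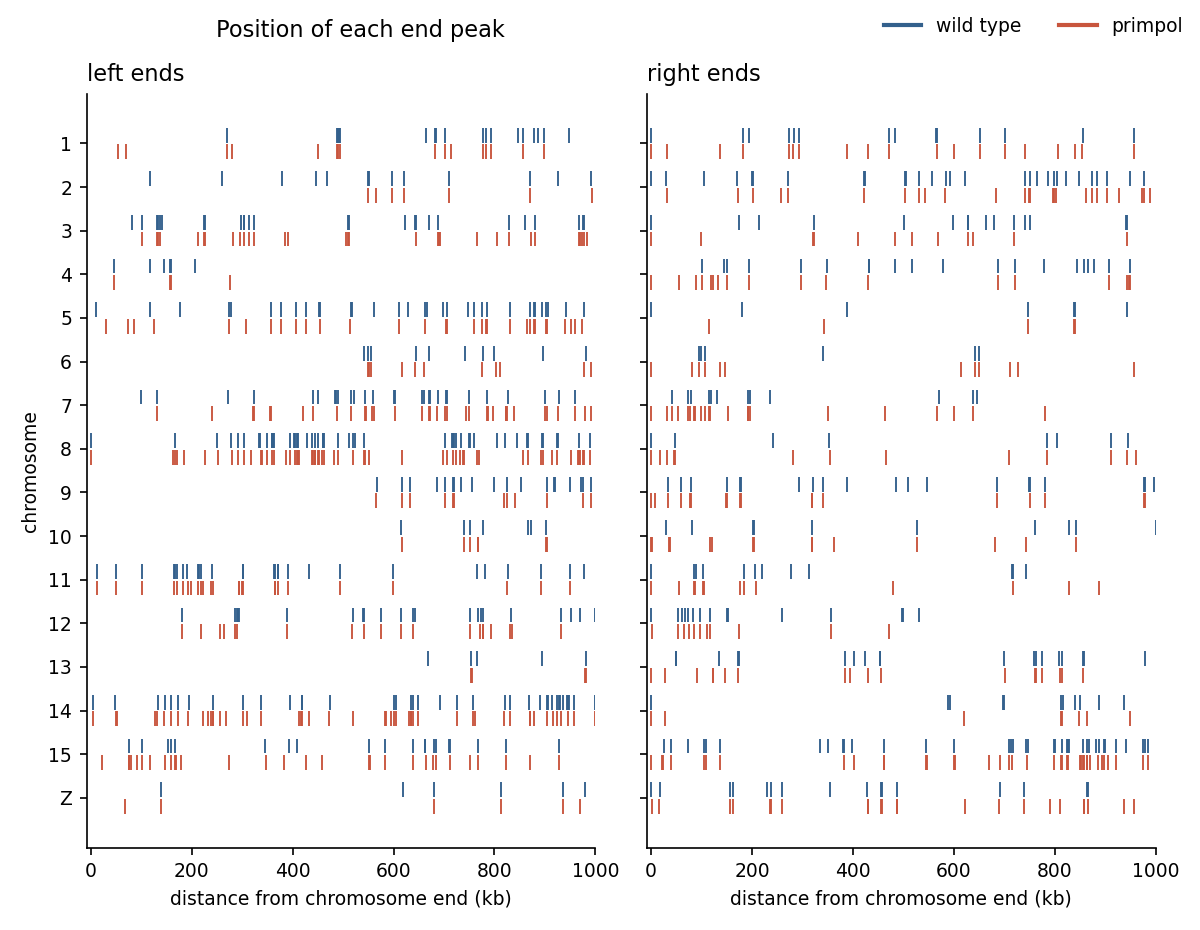
Position of every end peak. Each tick is the outer edge of a peak, placed by its distance from the left end (left panel) or the right end (right panel) in kb, with wild type in blue above *primpol* in red for each of the 16 chromosomes. Several left ends are empty for over 500 kb, while the left ends of chromosomes 8 and 14 hold 50 and 38 wild type peaks.

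The map of single peaks shows how uneven the ends were. A wild type end held between 5 and 50 peaks, with a median of 15.5, and a *primpol* end held between 4 and 59, with a median of 17. Of 320 blocks of 100 kb at the ends, 96 (30%) had no wild type peak, against 12.4% of inner blocks weighted by chromosome. For *primpol*, 106 end blocks (33.1%) were empty, against 11.5% of inner blocks. Ends had the larger empty share on 15 of 16 chromosomes in each list. On the left side, the first peak of either list started between 0.143 kb and 668 kb from base 1, with a median of 74.3 kb. It started more than 500 kb inside on 4 of 16 chromosomes. These were chromosome 6 (542 kb), chromosome 9 (565 kb), chromosome 10 (615 kb) and chromosome 13 (668 kb), and both lists were empty over these stretches.

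In each list 28 of the 32 ends had fewer peaks than expected, and 27 ends did so in both. The interval lay wholly below 1 at 22 ends in wild type and at 24 in *primpol*. These intervals take peaks as independent and leave out how density varies from stretch to stretch within a chromosome. The lowest ends were the left end of chromosome 4, with 6 wild type and 4 *primpol* peaks (ratios of 0.138 and 0.0750), and the right end of chromosome 5, with 7 and 5 peaks (0.168 and 0.10). Next came the right end of chromosome 6 in wild type (6 peaks, 0.178) and the left end of chromosome 2 in *primpol* (7 peaks, 0.102).

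A small number of ends went the other way. The left end of chromosome 14 held 38 wild type peaks where 25.1 were expected, a ratio of 1.51 (1.07 to 2.08), and 50 *primpol* peaks where 25 were expected, a ratio of 2.00 (1.49 to 2.64). At the left end of chromosome 8 there were 50 wild type peaks (1.47, 1.09 to 1.94) and 59 *primpol* peaks (1.58, 1.2 to 2.03). Here the peaks were clustered, with 12 wild type and 14 *primpol* peaks in the 100 kb that begin 400 kb from the end. The right end of chromosome 15 held 37 and 39 peaks (1.32, 0.933 to 1.83, and 1.49, 1.06 to 2.04). Of these, 11 wild type and 14 *primpol* peaks lay in the 100 kb that begin 800 kb inside, and its outer 500 kb alone gave ratios of 0.836 and 0.802. These 3 ends were the only ones above 1 in both lists. How far the left end of chromosome 14 stood out depended on the window and the reference. With 2 Mb its ratios were 1.07 and 1.2, and with 500 kb 1.09 and 1.89, whereas against the stretch from 1 to 3 Mb inside they were 2.20 and 3.92. The left end of chromosome 8 stayed between 1.31 and 1.72 under the same alternatives.

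**Figure D2:**
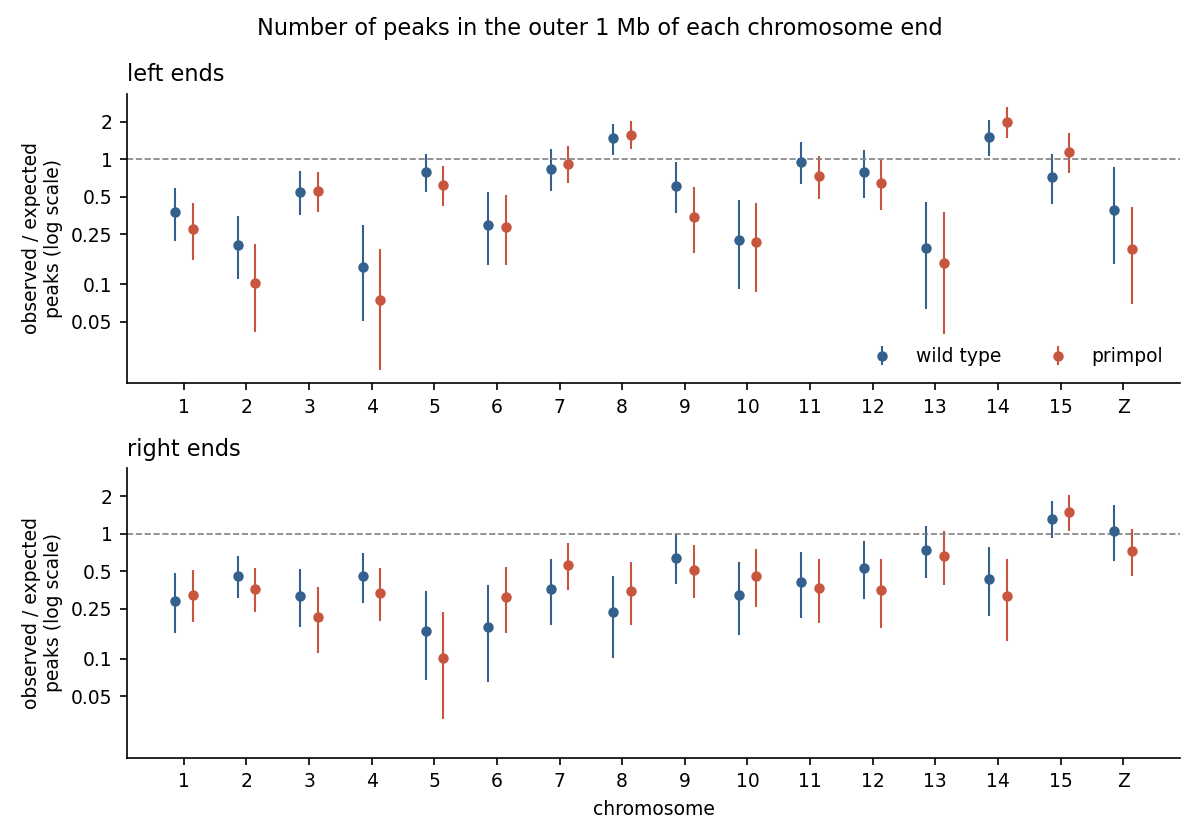
Observed over expected number of peaks in the outer 1 Mb, on a log scale, for the left and right end of each chromosome. Points are ratios, bars are 95% Poisson intervals of the count, wild type is blue and *primpol* red, and the dashed line is 1. Most ends lie below 1, and the left ends of chromosomes 8 and 14 and the right end of chromosome 15 lie above it in both lists.

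The order of the ends was alike in both lists. Over the 32 ends the ratios of wild type and *primpol* had a Spearman correlation of 0.891, given as a description, since both lists share the assembly and the inner reference. Left ends had a wild type ratio of 0.590 (0.528 to 0.657) and a *primpol* ratio of 0.543 (0.487 to 0.603), above those of right ends at 0.450 (0.396 to 0.510) and 0.420 (0.372 to 0.473). The side on which an end was placed by a peak was thus the sparser one.

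The shortfall also depended on the chromosome. On the large chromosomes 1 to 5 the ends held 18.1 wild type peaks per Mb against 48.7 inside, a ratio of 0.372 (0.320 to 0.430). The ratio was 0.522 (0.446 to 0.607) on chromosomes 6 to 10 and 0.760 (0.660 to 0.871) on chromosomes 11 to 15. In *primpol* the same classes gave 0.294 (0.251 to 0.342), 0.562 (0.488 to 0.645) and 0.755 (0.658 to 0.862). The density at the ends themselves changed little between the classes, from 17 to 20.7 peaks per Mb in wild type, while the inner density went from 48.7 down to 27.2. The size classes thus differed mainly in their inner density. Over chromosomes 1 to 15 the ratio had a Spearman correlation with the last peak end of −0.625 in wild type and −0.704 in *primpol*, as a description over 15 chromosomes that share the same libraries. On chromosome Z, the avian sex chromosome, the wild type ratio was 0.725 (0.454 to 1.10) and the *primpol* ratio 0.459 (0.308 to 0.660). The end counts on Z were 22 and 29, and the inner density was 15.2 and 31.6 peaks per Mb.

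Peak density was followed inwards in steps of 250 kb over all ends together. Wild type density was 15.9 peaks per Mb in the outermost step, then 15.3, 18.3 and 22.9 up to 1 Mb, and it reached 31.6 to 32.5 between 3250 and 4000 kb. In *primpol* the outermost step had 21.4 peaks per Mb (18.3 to 24.8), the next 3 had 16.1, 16.9 and 23.3, and the density was 34.8 to 35.5 between 3250 and 4000 kb. The outermost 250 kb held 171 *primpol* peaks against 127 in wild type, whereas the next 3 steps held 129 against 122, 135 against 146 and 186 against 183, as the profile of density by distance shows. By count, the excess of *primpol* peaks at the ends thus lay in the outermost step. The wild type interval there was 13.2 to 18.9 peaks per Mb and overlaps the *primpol* one. Inside there were also 1.19 *primpol* peaks for each wild type peak, and an excess beyond that was not tested. At right ends, distance was counted from the last peak of either list, which itself falls in this step. In the last 100 kb inside the 1 Mb bound there were 69 wild type peaks with a median pileup of 13.8, and in the first 100 kb outside 91 peaks with a median of 14.1. For *primpol* the same stretches held 71 and 89 peaks with medians of 17.7 and 18.1.

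**Figure D3:**
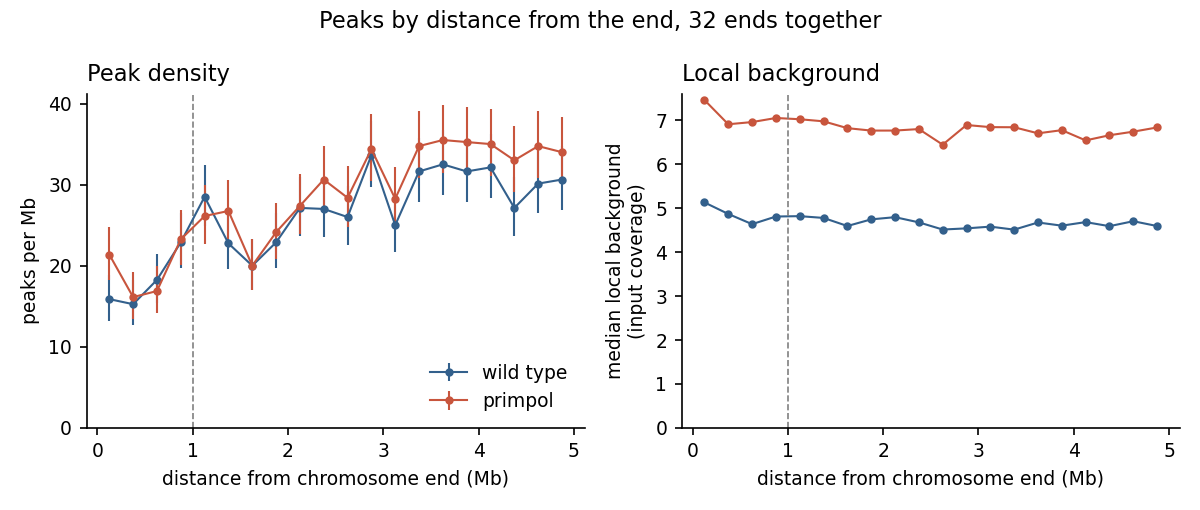
Peaks by distance from the end, with 32 ends together, in steps of 250 kb up to 5 Mb. The left panel gives peaks per Mb with 95% Poisson intervals, the right panel the median local background in units of input coverage, and the dashed line marks 1 Mb. Density climbs from 15.9 (wild type, blue) and 21.4 (*primpol*, red) peaks per Mb to over 30, while the median local background goes from 5.13 and 7.47 in the outermost step to 4.60 and 6.84 in the last.

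End peaks were also narrower than the inner peaks of the whole chromosome. The median width was 657 bp at wild type ends against 807 bp inside, and 726 bp at *primpol* ends against 848 bp. Ranked among the inner peaks of its own chromosome, the median wild type end peak stood at percentile 43.0 (39.6 to 47.2), below 50 on 11 of 16 chromosomes. The median *primpol* end peak stood at percentile 45.4 (41.9 to 48.3), below 50 on 12 of 16. Against the stretch from 1 to 3 Mb inside, the percentiles were 45.7 (41.5 to 50.9) and 48.9 (43.6 to 52.7), and in the outer 500 kb the wild type value was 48.9 (40.4 to 54.6), and these 3 intervals include 50. Peaks of at least 5 kb numbered 10 of 580 in wild type (1.72%, inside 2.95%) and 11 of 621 in *primpol* (1.77%, inside 3.27%). With fewer and narrower peaks, peaks covered 1.96% of the end sequence in wild type against 4.42% inside, and 2.14% against 5.36% in *primpol*. These are ratios of 0.443 and 0.40, and cover was lower at the ends on 14 of 16 chromosomes in each list.

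The widest end peaks were found in both lists. On chromosome 8 a wild type peak at chr8:990217-998905 (8689 bp) met a *primpol* peak of 8799 bp at chr8:990185-998983. On chromosome 14, chr14:147444-154641 (7198 bp) in wild type met chr14:145859-154604 (8746 bp) in *primpol*, which was wider than every inner *primpol* peak of that chromosome. The third, chr6:34816475-34823090 (6616 bp), met a *primpol* peak of 6074 bp. All coordinates are those of the lists, on Galgal5, and what lies at these positions was not looked up because no annotation of that build was used here.

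Next, the strength of the end peaks was examined. The pileup is the number of DRIP fragments over a position, averaged over the peak and scaled to the input depth. The local background is the coverage expected there from the input DNA. Taking all ends together, neither departed from the inner peaks. The median pileup was 13.8 at wild type ends and 13.9 inside, with a median percentile of 52.7 (47.3 to 58.8), and it was 17.5 against 17.7 in *primpol*, at percentile 49.9 (45.7 to 55.6). The median local background of wild type end peaks stood at percentile 54.7 (49 to 60), and that of *primpol* end peaks at 50.5 (44.2 to 54.6). Fold enrichment, the ratio of pileup to local background with 1 added to each, stood at percentile 50.9 (45.1 to 56.6) and 49.5 (44.5 to 54.2). These near-even totals hid differences within the window. In the outer 500 kb alone wild type pileup stood at percentile 66.4 (59.1 to 74.9) and *primpol* pileup at 60.6 (51.6 to 63.7), with local background at 68.5 (58.9 to 73.0) and 57.3 (49.4 to 65.1). The outer peaks thus ranked above the inner ones in pileup in both lists, while fold enrichment stayed at percentiles 50.2 and 49.7. The *primpol* background interval includes 50. Because the background was computed from pileup and fold enrichment, its higher rank is not a separate reading. Left and right ends differed too. Left ends had wild type pileup at percentile 59.7 and right ends at 41.3, and in *primpol* the same values were 55.6 and 39.9.

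Single chromosomes stood far from 50. Both lists lay on the same side of 50 on 15 of 16 chromosomes for local background and on 13 of 16 for pileup, the exceptions being chromosome 12 for both measures and chromosomes 3 and 10 for pileup. End peaks of chromosome 2 had a median local background of 5.25 against 6.57 inside in wild type, and 7.68 against 10.01 in *primpol*, at percentiles 8.49 and 6.45. Their pileup was low as well, at 15.1 against 17.2 and 18.4 against 22.7. Both ends of chromosome 2 shared this, with a wild type background of 5.21 on the left and 5.29 on the right. Just further in, from 1 to 2 Mb, the values were 6.52 and 5.82, and from 2 to 3 Mb they were 5.42 and 5.99. On the left side the background was thus low again further in. Chromosome 11 lay on the other side, with an end background of 5.35 against 4.65 in wild type and 8.0 against 6.89 in *primpol* (percentiles 87.9 and 85.6). Over the 16 chromosomes the median percentiles of the 2 lists had a Spearman correlation of 0.871 for local background and 0.776 for pileup. This is a description of chromosomes that share 1 assembly and, within a genotype, 1 input. Pileup and input coverage moved together here. The background stands for input coverage but was computed from pileup and fold enrichment, so the 2 are not separate readings. Their separate parts were not tested.

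**Figure D4:**
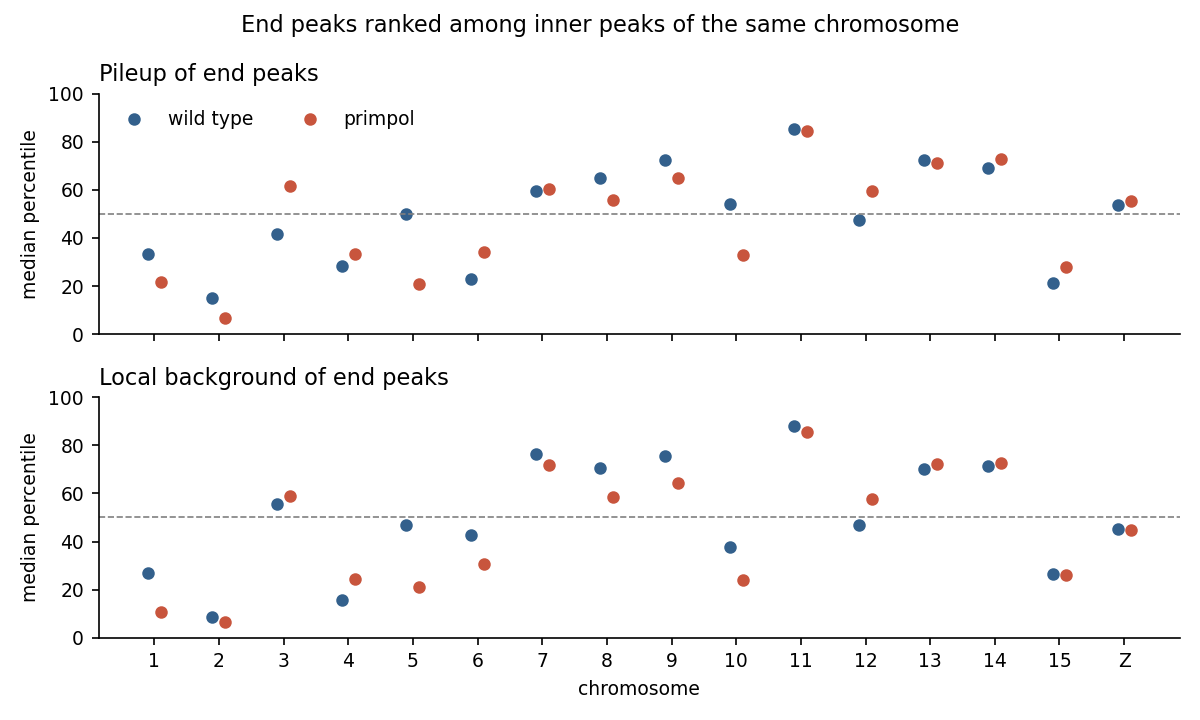
Median percentile of the end peaks among the inner peaks of the same chromosome, for pileup (top) and local background (bottom). Each point is 1 chromosome in 1 list (wild type blue, *primpol* red), and the dashed line is 50. Chromosome 2 lies lowest and chromosome 11 highest in local background in both lists.

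The outermost peak of each end was also examined by itself. Among the 32 outermost wild type peaks, the median local background stood at percentile 16.8 (0.948 to 70.1) of the inner peaks of the same chromosome, and 13 peaks fell below percentile 5. In *primpol* the median was percentile 9.89 (2.01 to 31.0), with 14 of 32 below percentile 5. Fold enrichment stood at a median percentile of 77.0 (40.7 to 96.2) for wild type peaks and 80.0 (50.04 to 92.4) for *primpol* peaks, and it was above percentile 95 for 11 and 9 of the 32 peaks. Pileup was not raised, at percentile 59.4 (10.3 to 80.1) and 31.2 (9.65 to 63.1). The wild type intervals are wide and include 50. In *primpol* the medians differed with distance from the end, but their intervals overlapped. The 21 outermost *primpol* peaks within 50 kb of an end stood at percentile 3.79 (0.154 to 15.8) for background. Their enrichment stood at 90.2 (74.2 to 99.9). The 11 further in stood at 45.0 (2.61 to 82.9) and 50.04 (7.00 to 83.7). Of the 21, 15 were at right ends, where the last peak sets the end, so distance and side were not separated here. In wild type the 19 within 50 kb stood at 14.7 and 80.1, and the 13 further in at 18.9 and 56.0.

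Left and right ends were also taken apart. At the 16 left ends, the outermost wild type peak stood at a median percentile of 12.3 for background and 87.8 for enrichment, and the *primpol* peak at 13.0 and 74.3. At the 16 right ends, where the last peak sets the end, the values were 34.4 and 65.3 in wild type and 4.36 and 90.1 in *primpol*. Background and enrichment are not separate readings here, since the background was computed from enrichment and pileup. The part of low input coverage in these calls was not tested.

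**Figure D5:**
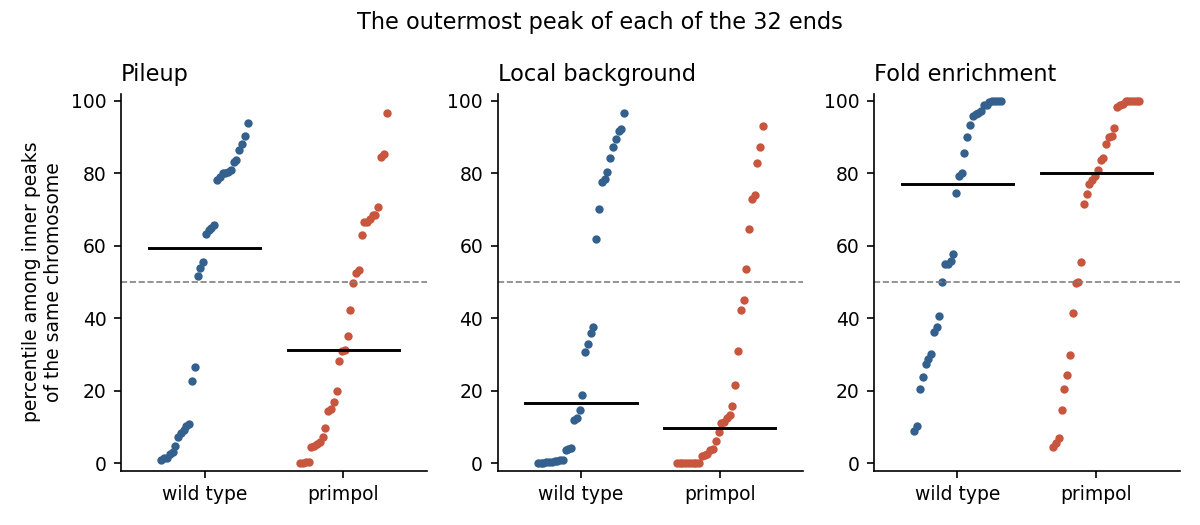
The outermost peak of each of the 32 ends, ranked among the inner peaks of the same chromosome by pileup, local background and fold enrichment. Each point is 1 peak, sorted within its list, black lines are medians and the dashed line is 50. Local background has medians of 16.8 and 9.89, with 11 wild type and 7 *primpol* peaks above 50. Fold enrichment has medians of 77.0 and 80.0, with 22 and 23 peaks above 50. The points spread widely in both lists.

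Some outermost peaks were also among the end peaks with the strongest statistics. From a −log10 q-value of 5 upwards there were 3 wild type end peaks (0.517%, inside 0.201%) and 6 *primpol* end peaks (0.966%, inside 0.249%), of which 1 and 5 were the outermost of their end. They were singled out after their values were seen. The larger *primpol* number holds for this cut. Over all 32 ends, the −log10 q-value of the outermost peak stood at a median percentile of 66.9 (43.1 to 85.2) in wild type. In *primpol* it stood at 62.4 (43.9 to 83.6). At the right end of chromosome 14, chr14:15581214-15581707 in *primpol* had a pileup of 18.3 over a background of 3.03, a 4.78-fold enrichment, and its wild type partner chr14:15581464-15581704 had 15.7 over 2.26, a 5.11-fold enrichment. Both backgrounds equal the genome-wide level to 3 digits, which is the lowest value the peak caller uses. So do those of chr8:170-636 in *primpol* and chr11:11546-11939 in wild type, given next. At the left end of chromosome 8, chr8:170-636 in *primpol* had 17.4 over 3.03 (4.57-fold), and chr8:144-587 in wild type had 11.7 over 2.44 (3.70-fold). On chromosome 11 both ends carried such a peak. chr11:11571-11952 had 18.3 over 3.62 in *primpol*, and its wild type partner chr11:11546-11939 had 13.9 over 2.26. chr11:20216456-20217919, at the other end, had 19.5 over 3.14 in *primpol*, the highest −log10 q-value of the *primpol* end peaks at 6.88, and its wild type partner had 14.8 over 2.59. The last *primpol* peak of chromosome 6, chr6:35464024-35464652, had 19.8 over 3.58 and no wild type partner. The strongest wild type end peak was not an outermost one. chr1:491534-491798 had a pileup of 19.2 over a background of 2.33, a 6.05-fold enrichment with a −log10 q-value of 8.31, and the *primpol* peak over it had 17.9 and a 3.71-fold enrichment.

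Ranked by pileup alone, the order of the end peaks was partly different. The highest wild type end peak, chr9:701674-702131, was also one of the 3 wild type peaks from a −log10 q-value of 5 upwards and had a pileup of 24.7 over 6.27, while its *primpol* partner had 16.3 over 6.31. Next were chr2:597804-598162 with 22.4, whose partner had 22.2, and chr2:991324-991734 with 21.5, which had no *primpol* partner. In *primpol*, chr2:148634483-148635769 was highest at 27.2 over a background of 13.7, so that its fold enrichment of 1.92 stood at only percentile 5.17 of the chromosome. The wild type peak there had 16.9 over 6.63. Next came the wide peak of chromosome 14 at 26.6 over 9.48. The third, chr11:20131055-20133255, had 26.5 over 11.1, above every inner *primpol* peak of chromosome 11 in pileup and at percentile 43.2 in enrichment. The 3 highest wild type peaks stood at enrichment percentiles of 99.0, 98.9 and 96.8 of their chromosomes.

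Whether an end peak recurred in the other genotype was counted at an overlap of at least 1 bp. Of the 580 wild type end peaks, 344 (59.3%, 55.3 to 63.2) overlapped a *primpol* peak, while 70.4% of all wild type peaks on the 16 chromosomes did. Weighted by chromosome as the end peaks are, the inner share was 65.8%, and the end share was lower on 14 of 16 chromosomes. Of the 621 *primpol* end peaks, 342 (55.1%, 51.1 to 58.9) overlapped a wild type peak, close to the 57.3% of all *primpol* peaks and to the weighted inner share of 56.5%. It was lower than inside on 9 of 16 chromosomes. The wild type difference of −6.44 percentage points was not stable. It was 0.267 points against the stretch from 1 to 3 Mb inside, and 0.734 points when at least 50% of both peaks had to overlap.

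Sharing followed width. When the widths of each list were split into 3 equal classes, 40.5% of the narrowest wild type end peaks (183 to 547 bp) were shared, 59.0% of the middle class and 88.5% of the widest, against 49.8%, 67.7% and 94.1% inside. Against these inner shares the wild type end share was lower in every class. In *primpol* the end shares were 35.0%, 53.3% and 90.7% against 33.2%, 50.8% and 87.8% inside. Each *primpol* interval (29.3 to 41.1, 46.8 to 59.7 and 84.9 to 94.4) included the inner share. The inner shares by width were pooled over chromosomes and not weighted as the end peaks are. Over all widths the wild type inner share was 70.6% pooled and 65.8% weighted. The narrowest class held 39.1% of the wild type and 39.6% of the *primpol* end peaks. Shared end peaks had a median width of 946 bp in wild type, and the 236 that were not shared had one of 486 bp. In *primpol* the corresponding widths were 1055 bp and 520 bp for 342 and 279 peaks.

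Both genotypes were then compared at the ends. There were 1.07 *primpol* end peaks for each wild type end peak, against 1.19 inside, and the ratio of these ratios was 0.90 (0.803 to 1.01). The interval includes 1, so a smaller share of extra *primpol* peaks at the ends was not resolved with all peaks and the 1 Mb window. The interval included 1 on each of the 16 chromosomes too, where the ratio ran from 0.634 (0.362 to 1.11) on Z to 1.29 (0.878 to 1.90) on chromosome 15 and was below 1 on 10. By end, 14 of 32 held more *primpol* than wild type peaks, 16 held fewer and 2 the same number. The value depended on which peaks were counted. Restricted to −log10 q-values from 2 upwards it was 0.729 (0.563 to 0.945), and it was 0.831 (0.697 to 0.992) among the 20000 peaks of each list with the highest −log10 q-values, and 0.868 (0.751 to 1.003) with the *primpol* list approximately scaled to the wild type input depth. The 2 Mb window gave 0.880 (0.815 to 0.949) and the outer 500 kb 1.01 (0.857 to 1.2). It was 1.02 against the stretch from 1 to 3 Mb inside, and 0.935 when counts were combined within chromosomes. Every other value over several chromosomes pooled their counts, although the inner ratio ran from 0.937 on chromosome 15 to 2.08 on Z. Intervals with an upper bound below 1 were thus not matched by chromosome. Leaving out chromosome 6, 7, 8 or 15 gave intervals with an upper bound below 1, from 0.876 (0.777 to 0.986) without chromosome 7 to 0.890 (0.792 to 0.999) without chromosome 6. The ratios of these chromosomes were themselves above 1, at 1.26, 1.24, 1.13 and 1.29, so leaving them out lowered the pooled value. Leaving out any other single chromosome gave an interval that included 1.

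Peaks that matched 1 to 1 between the lists allowed the same site to be followed. At the ends there were 294 such pairs, and 20623 inside. The *primpol* pileup was 1.26 times that of wild type at the ends (quartiles 1.15 and 1.37) and 1.31 times inside (1.21 and 1.41). Local background changed by 1.46 times and 1.52 times. These ratios include the deeper *primpol* input and carry no spike-in scale, so they are read only against the inner pairs. Ranked among the inner pairs of its chromosome, the median end pair stood at percentile 42.2 (35.9 to 50). In 52.0% of end pairs and 60.4% of inner pairs the *primpol* peak exceeded its partner in width, with median width ratios of 1.01 and 1.08. Pileups of the pair members had a Spearman correlation of 0.642 at the ends and 0.778 inside, across peaks of the same libraries. Inner wild type peaks had median pileups from 9.46 on Z to 17.2 on chromosome 2. Chromosome 2 held 42 of 580 wild type end peaks but 9278 of 37845 inner ones. How far this mix of chromosomes enters the 2 correlations was not tested.

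The 2 falls and 2 rises that were largest in pileup rank within the list are given as single sites. The peak chr10:20157321-20158253 fell from percentile 88.0 of the wild type list to 11.9 in *primpol*, with pileups of 17.8 and 14.2. The peak chr9:701674-702131, the highest in wild type, fell from percentile 99.5 to 32.7. Of those that gained, chr15:11854804-11855861 went from percentile 25.5 to 72.3 (12.6 and 19.9), and its rank in fold enrichment also rose, by 38.3 points. The peak chr12:180960-181688 went from percentile 15.1 to 66.2 (11.9 and 19.2), but its rank in fold enrichment changed by −24.9 points, as its local background went from 4.04 to 8.26. With 1 list per genotype, such changes at single sites have no replicate check.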

How the data were processed

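The authors trimmed reads with Trim Galore 0.4.4, aligned them with bowtie2 2.2.6 to Galgal5 and the *Drosophila* genome and kept uniquely matching reads, so reads with several matches carry no signal. They called broad peaks per genotype against its input with MACS2 2.1.1.20160309. Per the file headers, 46425192 wild type and 44735404 *primpol* DRIP tags and 23107894 and 30302032 input tags were used. How replicates were merged is not given in the sources used here. The deposited signal is the mean fragment pileup, scaled to the input. Fold enrichment, as deposited, is a ratio of pileup to local background, each plus 1, and gave the background by inversion. The deposited −log10 q-values are those of MACS2, and its p-values were not used. Other deposited columns gave peak positions and widths.

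Expected numbers used each chromosome's inner density. Counts were given exact Poisson, shares Wilson and medians order-statistic 95% intervals, with Python 3.11.15, numpy 2.4.6, pandas 2.3.3, scipy 1.17.1 and matplotlib 3.10.9. Overlaps at 1 bp were checked with bedtools 2.31.1, and the calculations were tested on simulated data. Members, named peaks and alternatives were chosen with earlier results of these data known. Named were the 3 highest and 3 widest end peaks per list, the 3 highest and lowest ends, outermost peaks of ends discussed and the 2 pairs rising and 2 falling most in rank. Outermost-peak, empty-block and pair measures were added after seeing the data. The planned look at end sequences was not run, since no Galgal5 genome was used here. RNase H samples were not analysed here.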

Additional observations from a re-analysis of the deposited data

How the results depend on the processing

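No paired analysis was possible because the replicates of a genotype share 1 peak list, although the labels number its DRIP replicates 1 and 2. Counts, not sequencing depth per replicate, set the intervals, and no alternative can stand in for replicates. For every alternative below the cause of a shift was not tested. Density and cover at the ends stayed below the inner level under each alternative run. Values of the measures over all ends that left the main interval are given here, wild type first where there are 2.

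With an end window of 500 kb, density was 0.450 in wild type, width percentiles were 48.9 and 41.7, pileup percentiles 66.4 and 60.6, background percentiles 68.5 and 57.3, the *primpol* sharing difference −5.79 points and the genotype ratio 1.01. With 2 Mb, density was 0.584 and 0.528, cover 0.508 and 0.463, background percentiles 47.2 and 43.6, and *primpol* pileup 44.9. Restricted to −log10 q-values from 2 upwards, wild type density was 0.647, its excess of empty blocks 9.34 points, fold enrichment percentiles 64.8 and 69.9, *primpol* background 39.6, the *primpol* outermost peaks' enrichment 94.6 and the genotype ratio 0.729. Left ends alone gave density of 0.590 and 0.543, cover of 0.517 and 0.468, pileup percentiles of 59.7 and 55.6 and a wild type background of 62.3. Right ends alone gave density of 0.450 and 0.420, cover of 0.369 and 0.332, pileup of 41.3 and 39.9, background of 38.6 and 36.0 and fold enrichment of 58.4 and 54.4. Against the stretch from 1 to 3 Mb inside, density was 0.698 and 0.713, cover 0.656 and 0.634, pileup 59.4 and 56.6, *primpol* background 56.8, *primpol* width 48.9, the excess of empty blocks 9.06 and 10.3 points, the genotype ratio 1.02, and the wild type sharing difference turned to 0.267 points. It also turned, to 0.734 points, when 50% of both peaks had to overlap. Counted from the first peak start, left and right ends together gave density of 0.601 and 0.543.

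Leaving out each chromosome in turn moved *primpol* cover between 0.367 and 0.438, and no other measure left its main interval. The right end of chromosome 15 in *primpol* turned from above to below 1 with windows of 500 kb (0.802) and 2 Mb (0.904). Other named ends moved too. The left end of chromosome 4 went to 0.306 and 0.204 and that of chromosome 2 in *primpol* to 0.465 with 2 Mb, the latter holding no peak in its outer 500 kb. With −log10 q-values from 2 upwards the left end of chromosome 4 and the right end of chromosome 5 held none, the right ends of chromosomes 6 and 15 in wild type went to 0.418 and 0.620, the latter to 1.01 in *primpol*, and the left end of chromosome 8 in wild type to 1.05. The rise on chromosome 12 turned to −24.9 points by fold enrichment. Left out, as planned only with a Galgal5 genome, was the look at end sequences.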
